A study of Homo sapiens with 9 samples.

Results

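The transcription factors that set the lineages of the mammary epithelium were followed across 3 human breast cell lines of the MCF-10A series, named MII, MIII and MIV. The rule named 10 genes, TP63, SOX2, SOX4, SOX9, FOXC1, FOXA1, GATA3, ESR1, KLF5 and ELF5. As applied here, it took every probe set that the array annotation assigns to one of these symbols and to no other gene. It found 30 probe sets for 8 of the 10 genes, out of 41091 probe sets with a single gene. TP63 and FOXC1 had no probe set under this rule and were not analysed here. Of the 8 genes, 7 passed the filter on dim signals and were tested among 12594 genes in all, on 16 of the 30 probe sets, while SOX2 did not pass on any of its probe sets.

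By the labels, MCF-10AT1Kcl2 is MII and stands for carcinoma in situ. MCF-10A1h is MIII and stands for carcinoma, and MCF-10A1a is MIV and stands for metastatic carcinoma. MCF-10A is a non-tumorigenic breast epithelial line, and all lines compared here descend from a derivative of it that carries activated HRAS, so no group lacks that allele. All were grown untreated in the same DMEM/F12 medium with horse serum, insulin, cholera toxin, epidermal growth factor and hydroxycortisone. Each group is 1 cell line measured on 3 arrays, so every comparison is between lines, and a label such as carcinoma in situ names the stage a line stands for. Arrays of 1 line are labelled biological replicates, with no word on whether separate cultures were used, so p-values cover only the array-to-array spread, part of which may be technical.

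The mammary epithelium has an outer basal layer, which depends on TP63, and an inner luminal layer, in which GATA3 and FOXA1 act with the estrogen receptor ESR1. FOXA1 is a pioneer factor that opens chromatin for ESR1, and GATA3 keeps luminal cells differentiated. ELF5, an ETS factor, directs the alveolar cells that make milk, and KLF5, a zinc finger factor, is active in both epithelial layers. SOX9 marks luminal progenitors and stem-like cells, SOX4 acts in transforming growth factor beta signalling and in cell plasticity, and SOX2 is a pluripotency factor. MCF-10A cells are known for basal features, with little estrogen receptor.

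The sequences before the start sites of 4 members that were lower in MIII and in MIV than in MII are shown, because these members were low together in MIII and bind DNA through motifs that can be searched for in each other's windows. Each is the 250 bases before a RefSeq start (GRCh38.p14), written 5′ to 3′ on the strand of the gene: FOXA1 at chr14:37595250-37595499 on the minus strand, GATA3 at chr10:8045083-8045332 on the plus strand, KLF5 at chr13:73058755-73059004 on the plus strand and ELF5 at chr11:34511725-34511974 on the minus strand. Capitals mark matches to the motifs searched.
FOXA1: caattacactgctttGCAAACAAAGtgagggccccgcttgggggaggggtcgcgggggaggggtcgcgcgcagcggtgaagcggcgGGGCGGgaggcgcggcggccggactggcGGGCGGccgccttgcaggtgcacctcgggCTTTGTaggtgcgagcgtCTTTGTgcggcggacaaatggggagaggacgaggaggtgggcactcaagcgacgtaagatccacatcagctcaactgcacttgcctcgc
GATA3: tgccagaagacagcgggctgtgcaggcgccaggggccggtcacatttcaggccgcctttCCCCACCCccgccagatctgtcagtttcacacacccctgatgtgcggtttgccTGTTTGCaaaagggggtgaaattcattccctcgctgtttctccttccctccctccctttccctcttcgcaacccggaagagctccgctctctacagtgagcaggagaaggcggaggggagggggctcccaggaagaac
KLF5: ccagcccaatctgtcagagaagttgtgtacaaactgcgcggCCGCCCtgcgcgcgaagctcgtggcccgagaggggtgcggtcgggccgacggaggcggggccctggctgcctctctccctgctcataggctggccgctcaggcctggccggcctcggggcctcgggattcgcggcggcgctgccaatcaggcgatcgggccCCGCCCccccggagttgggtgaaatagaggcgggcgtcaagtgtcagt
ELF5: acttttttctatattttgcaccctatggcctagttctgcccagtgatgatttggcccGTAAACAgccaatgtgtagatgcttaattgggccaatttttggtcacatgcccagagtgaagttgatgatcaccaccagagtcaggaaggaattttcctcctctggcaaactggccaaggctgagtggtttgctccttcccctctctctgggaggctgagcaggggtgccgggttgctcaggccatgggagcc

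The search covered 11 motifs on both strands in 35116 windows of the same length. Of these windows, 2.98% held the forkhead motif TGTTTAC and 3.23% the forkhead motif TGTTTGC. The GATA motifs AGATAA and TGATAA were in 9.17% and 6.66%, the SOX motifs ACAAAG and ACAATG in 13.7% and 9.29%, and the ETS motif CCGGAAGT in 3.42%. The GC box GGGCGG was in 42.6%, the CACCC box CCCCACCC in 10.4%, the nuclear receptor motif AGGTCA in 12.1% and the full estrogen response element, GGTCA and TGACC with any 3 bases between them, in 0.0399%. The FOXA1 window held 1 match to TGTTTGC, on the reverse strand, which overlaps the first of its 3 matches to ACAAAG, and 2 GC boxes. The GATA3 window held 1 match to TGTTTGC and 1 to CCCCACCC, the KLF5 window 2 GC boxes, and the ELF5 window 1 match to TGTTTAC on the reverse strand. None of the 4 windows held a match to either GATA motif, to the ETS motif CCGGAAGT, to AGGTCA or to the full estrogen response element. These matches are letters in a window and were not measured as binding. GATA3 has 6 listed starts and KLF5 has 2, and the window with the most kinds of motif was taken, then the one with the most matches, then the first. For GATA3 the first and the last window tie at 2 kinds and 2 matches, the last with 1 match each to ACAAAG and ACAATG. The KLF5 window not shown held 1 match to ACAATG. The windows shown were thus chosen for their matches. For ESR1 the 3 windows with a match, of 6 in all, each follow another start within 2000 bases and are not shown.

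Signals are MAS5 values on a linear scale, and log2 changes were taken after adding an offset of 18.3. Array medians ran from 64.7 to 74.9, and the number of arrays limits the precision. MIV replicate 3 differed from the other 8 arrays in the bioB spike-in control, with a mean signal of 3133 against 1001 to 1523. Probe sets of different genes bind with different strength, so levels are compared between lines within a probe set and not between genes. In bulk RNA, fewer cells of a type and less RNA per cell cannot be told apart.

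By mean log2 level, ESR1, FOXA1, GATA3, KLF5 and ELF5 were highest in MII, and SOX4 and SOX9 in MIV. The share of all genes highest in MII was not counted. In MIII against MII, 6 of the 7 tested members were lower and 1 was higher at a limma adjusted p under 0.05, and the median log2 change of the members was -0.93, against -0.02 over all genes. A gene is counted as called when it also changed at least 2-fold, and ESR1, FOXA1 and ELF5 fell by that rule in MIII. That is 3 of 7, where 5.55% of all genes tested were called lower, 6.17% higher and 11.7% in either direction. At the adjusted p alone, 24.3% of all genes were lower and 22.9% higher. In MIV against MII, 5 members were lower and 1 was higher at an adjusted p under 0.05 (median -0.55, all genes -0.03), and ESR1 and ELF5 were called lower, 2 of 7 against a background of 5.18% called lower, 2.96% higher and 8.14% in either direction, or 22.2% and 20% at the adjusted p alone. In MIV against MIII, 5 members were higher and 0 lower (median 0.30, all genes -0.01), and ESR1 was called higher, 1 of 7 against a background of 4.95% called higher, 7.79% lower and 12.7% in either direction, or 25.3% and 26.6% at the adjusted p alone. Being called lower than MII in both other lines was shared by ESR1 and ELF5 and by 2.06% of all genes. Being called lower in MIII and higher again in MIV was shared by ESR1 and by 2.91% of all genes. ESR1 and ELF5 passed the filter only through their MII arrays, so the filter itself favoured lower values in the other lines. Neither share can therefore show an excess of these patterns among the members. The arrays of the lines did not overlap for 7 of 7 members between MIII and MII, 6 of 7 between MIV and MII and 5 of 7 between MIV and MIII, against 55.3%, 50.7% and 58.8% of all genes. ELF5 had to be without overlap against MII, as only its MII arrays exceeded the pooled median. ESR1 had 3 such arrays in MII and 0 in MIII. Both add no support to the counts in those comparisons. ELF5 passed the filter only through its MII arrays, where it is high, and without it the called members were 2 of 6 in MIII and 1 of 6 in MIV against MII. ESR1 exceeded the pooled median on 3 MII and 2 MIV arrays and would not have passed without its MII arrays either. Thus 2 of the 3 members called lower in MIII against MII, and 2 of 2 in MIV against MII, passed the filter only through MII. These calls add no support to the member counts, and the remaining one is FOXA1 in MIII. The counts at the adjusted p alone and the medians of the members also include ESR1 and ELF5, and are favoured by the filter in the same way. Among the other members tested, SOX9, FOXA1, GATA3 and KLF5 were lower and SOX4 higher in MIII against MII at that adjusted p. In MIV against MII, FOXA1, GATA3 and KLF5 were lower and SOX4 higher. The comparisons share arrays with one another, so a high or low level in one line enters more than 1 of them.

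**Figure D1:**
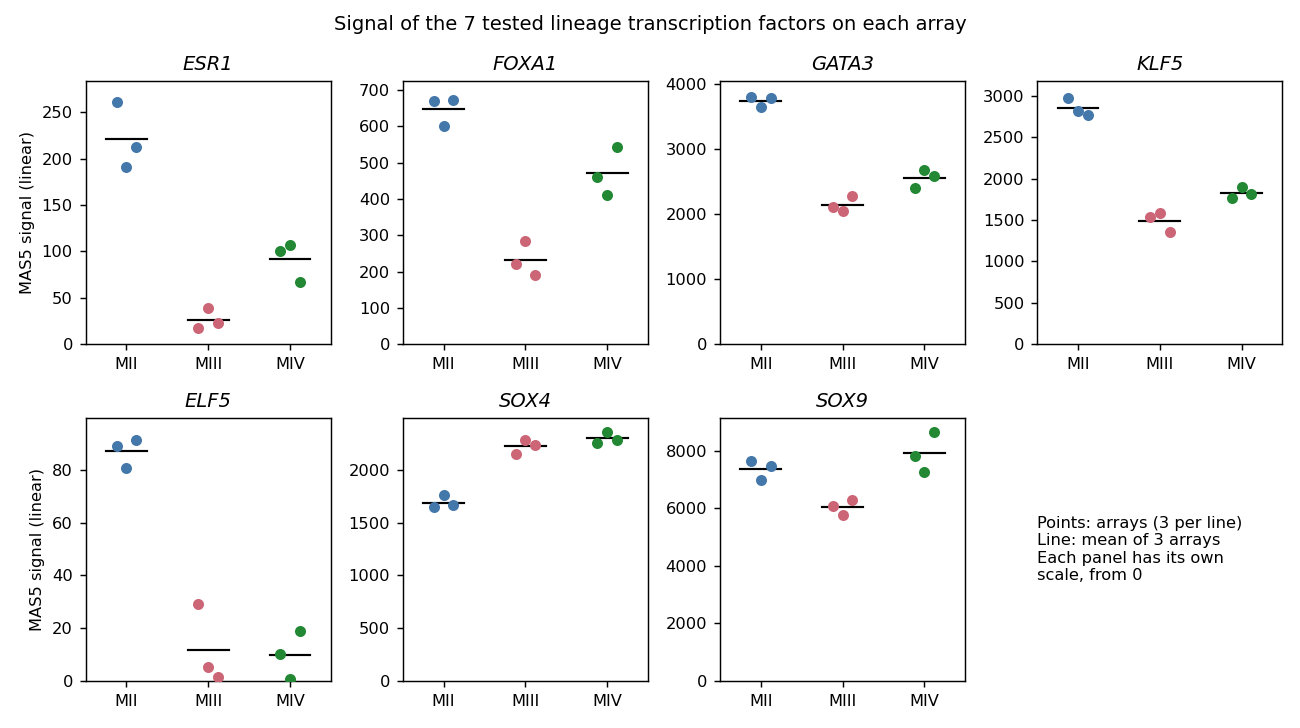
MAS5 signal (linear scale, y axis) of the representing probe set of each tested member on every array, by line (x axis); points are arrays, 3 per line, and horizontal bars are means. ESR1, FOXA1, GATA3 and KLF5 are highest in MII and lowest in MIII with no overlap between lines, ELF5 is above the pooled median of 69.3 only in MII, and SOX4 is lowest in MII.

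ESR1, FOXA1, GATA3 and KLF5 all stood in the order MII, MIV, MIII from high to low, an order found in 17.8% of all genes tested. ESR1 passed the filter only through its MII arrays, which favoured its place at the top, so it adds no support to this order. Markers of the epithelium had their lowest summed signal in MIII as well. The sum over the 7 epithelial markers measured (of 8 listed) was 109311.6 to 114499 in MII, 65750.1 to 66860.3 in MIII and 108209.8 to 118368.9 in MIV, and 3 of 6 tested markers were called lower in MIII than in MII, CDH1 (-3.19 ± 0.05), EPCAM (-2.20 ± 0.07) and KRT14 (-1.16 ± 0.11; log2 change ± SE). The basal keratin KRT5 had 25794 ± 922, 26309 ± 677 and 25069 ± 670 in MII, MIII and MIV (SD, n = 3), so all lines held an epithelial keratin at a high signal. The summed signal of the 10 fibroblast markers was 1141.5 to 1197.3 in MII, 6530.7 to 6860.9 in MIII and 789.7 to 869.5 in MIV. Of its 7 tested markers, 5 were called higher in MIII than in MII, among them POSTN (5.55 ± 0.27) and DCN (4.76 ± 0.29). Of these 5, POSTN, COL3A1, LUM and THY1 passed the filter only through their MIII arrays, where they are high, and so had to differ. DCN exceeded the pooled median on all 3 MII arrays as well, and its mean signal was 2511 in MIII and 52.6 in MIV. FAP was lower in MIII, with a mean signal of 405 against 678 in MII (-0.72 ± 0.11, limma adjusted p = 7.62e-05), and COL1A1 had a change of -0.18 ± 0.18 (adjusted p = 0.431). In MIII 7 markers had a mean above the pooled median, and COL1A2, PDGFRA and PDGFRB lay below it in every line. Of the 6 tested myoepithelial markers, MME, TAGLN and MYLK were called higher in MIII, although TAGLN gave -0.49 on its highest-mean probe set without a suffix and the MYLK call was lost with the mean of its probe sets (0.91). MME and MYLK passed the filter only through MIII. The myoepithelial sum was 10207.5 to 10776.6 in MII, 11473.8 to 12472.8 in MIII and 11027.2 to 12221.4 in MIV. On probe sets without a suffix, 1 of 5 myoepithelial, 1 of 2 epithelial and 1 of 1 fibroblast markers tested were called in MIII against MII. The leukocyte and endothelial markers summed to 1698.6 to 1962.7, 956.5 to 1105.8 and 719.6 to 784.6 in MII, MIII and MIV, with PTPRC, CDH5 and VWF below the pooled median in every line. CD14, which is also on the list of alveolar genes, carried most of this sum in MII and MIII, though not in MIV, and most of its fall. Its means were 1490, 594 and 323. PECAM1 went the other way, with means of 174, 251 and 306 (0.51 ± 0.20 in MIII and 0.78 ± 0.20 in MIV against MII, limma adjusted p = 0.0497 and 0.0065). The part of these markers in the low values of MIII was not tested.

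Among the luminal factors, ESR1 (probe set 205225_at) was high in MII, intermediate in MIV and lowest in MIII. ESR1 is the estrogen receptor alpha, the hormone-dependent factor of luminal cells. Its signal was 260.5, 191.3 and 212.6 on the MII arrays, 17.5, 39.3 and 22.5 on the MIII arrays and 100.1, 107.4 and 66.6 on the MIV arrays. No array of one line overlapped another line, and all MIII arrays and 1 MIV array lay under the pooled median of 69.3. The log2 change (± SE) was -2.44 ± 0.27 in MIII against MII (limma adjusted p = 4.45e-06), -1.14 ± 0.27 in MIV against MII (adjusted p = 0.00376) and 1.30 ± 0.27 in MIV against MIII (adjusted p = 0.00103). By an exact permutation test (two-sided) p was 0.1 for each pair of lines, the lower limit of this test with 3 arrays a line, and the same holds for every member pair without overlap. Without MIV replicate 3 the change in MIV against MII was -0.96 and no longer 2-fold (limma adjusted p = 0.0187). At an offset equal to the pooled median, the changes in MIV were -0.86 against MII and 0.74 against MIII, both under 2-fold. The remaining 8 probe sets of ESR1 each exceeded 69.3 on at most 2 of the 9 arrays and were not tested, so the ESR1 values rest on 1 probe set.

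FOXA1 fell in MIII, where its mean signal was lower than in MII by a factor of 2.80, and was intermediate in MIV. On probe set 237086_at the MII arrays had 671, 601.6 and 672.9, the MIII arrays 219.8, 283.9 and 191.6, and the MIV arrays 461.2, 412.2 and 542.2. The lines did not overlap. The log2 change was -1.43 ± 0.14 in MIII against MII (limma adjusted p = 1.71e-06), -0.45 ± 0.14 in MIV against MII (adjusted p = 0.0216) and 0.98 ± 0.14 in MIV against MIII (adjusted p = 5.66e-05), the last just short of 2-fold. The second probe set, 204667_at, had 488.2, 628.8 and 564.8 on the MII arrays, 163.5, 181 and 237.3 on the MIII arrays and 549.3, 539 and 464.5 on the MIV arrays. There MII and MIV overlapped (-0.11 ± 0.14, adjusted p = 0.609 over all probe sets), and MIV was called higher than MIII (1.35 ± 0.14, adjusted p = 3.97e-06). The lower FOXA1 signal in MIII was thus seen on both probe sets, while a difference between MII and MIV passed the test on one of them.

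GATA3, the zinc finger factor of luminal cells, was lower in MIII and MIV than in MII by less than 2-fold. Its brightest probe set, 209604_s_at, gave 3803.9, 3641.1 and 3788.9 in MII, 2107.7, 2049.1 and 2280.2 in MIII, and 2404.5, 2678.6 and 2581.5 in MIV. Again no arrays overlapped between lines. The log2 change was -0.80 ± 0.06 in MIII (limma adjusted p = 1.03e-07) and -0.55 ± 0.06 in MIV (adjusted p = 6.96e-06) against MII, and 0.25 ± 0.06 in MIV against MIII (adjusted p = 0.00338). Its 3 probe sets had the same direction in each comparison, with changes in MIII against MII from -0.99 to -0.67. GATA3 stayed above the pooled median on all 9 arrays.

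KLF5 followed the same order as GATA3 with similar sizes. On 209212_s_at the signals were 2974.9, 2814.7 and 2773.8 in MII, 1532, 1579.4 and 1351.4 in MIII, and 1761.5, 1904.2 and 1818 in MIV. All MII arrays lay above all MIV arrays, and these above all MIII arrays. The log2 change was -0.93 ± 0.07 in MIII (limma adjusted p = 7.42e-08) and -0.64 ± 0.07 in MIV (adjusted p = 5.42e-06) against MII, and 0.30 ± 0.07 between MIV and MIII (adjusted p = 0.00242). The probe set 209211_at, which carries no suffix, gave -1.05 ± 0.09 in MIII against MII and was past 2-fold there (adjusted p = 5.33e-07). Its signals ran from 2286 to 2524.1 in MII, from 1061.1 to 1306 in MIII and from 1413.2 to 1708.4 in MIV.

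ELF5, the alveolar factor, was above the pooled median only in MII. Probe set 220625_s_at gave 89, 80.6 and 91.4 in MII, 29.3, 5.1 and 1.3 in MIII, and 10.2, 0.7 and 18.8 in MIV. The MII signals are themselves close to the pooled median of 69.3, and those of MIII and MIV overlap. The log2 change was -1.91 ± 0.47 in MIII (limma adjusted p = 0.00404) and -1.95 ± 0.47 in MIV (adjusted p = 0.0042) against MII, and -0.04 ± 0.47 between MIV and MIII (adjusted p = 0.953; 95% interval from -1.05 to 0.97). Since only the MII arrays carried ELF5 past the filter, it had to differ between lines, and its calls add no support to the member counts. At an offset equal to the pooled median the changes were -0.96 and -0.99, under 2-fold. The other probe set, 220624_s_at, did not exceed 12.3 on any array and was not tested.

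The SOX factors did not follow the order of the luminal factors. SOX4 (201417_at) had 1645.1, 1761.5 and 1664.7 in MII, 2146.2, 2285.3 and 2234.5 in MIII, and 2258.6, 2362.5 and 2283.6 in MIV. Every MIII and MIV array lay above every MII array, by a log2 change of 0.39 ± 0.06 (limma adjusted p = 6.64e-05) and 0.44 ± 0.06 (adjusted p = 3.11e-05). MIII and MIV overlapped, with a difference of 0.05 ± 0.06 (adjusted p = 0.495; 95% interval from -0.07 to 0.17). The 5 tested probe sets of SOX4 were all higher in MIII and in MIV than in MII, and 3 and 2 of them passed an adjusted p under 0.05. Between MIV and MIII, 2 had a positive and 3 a negative difference, and 201416_at was lower in MIV by a log2 change of -0.45 ± 0.17 (adjusted p = 0.0454).

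SOX9 was bright in every line and lowest in MIII. Probe set 202936_s_at had 7641.8, 6985.7 and 7487.9 in MII, 6093.2, 5784.4 and 6277.5 in MIII, and 7808.1, 7266.7 and 8658.9 in MIV. MIII lay below both other lines without overlap, while MII and MIV overlapped. The log2 change was -0.28 ± 0.06 in MIII against MII (limma adjusted p = 0.00222) and 0.38 ± 0.06 in MIV against MIII (adjusted p = 0.000179), and 0.10 ± 0.06 in MIV against MII (adjusted p = 0.242; 95% interval from -0.04 to 0.24). On 202935_s_at the corresponding changes were -0.23 ± 0.09, 0.20 ± 0.09 and -0.03 ± 0.09, none of which passed an adjusted p under 0.05. The difference between MIII and the other lines thus had the same direction on both probe sets and passed the test on one.

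SOX2 gave no signal above the pooled median on any array. Its 4 probe sets reached at most 57.9 (213721_at), 9.5 (213722_at), 67.4 (214178_s_at) and 44.1 (228038_at). SOX2 was therefore not tested. On 228038_at the MIII arrays (34, 29.6 and 44.1) lay above the MII arrays (16.4, 11 and 21.4) and the MIV arrays (5.1, 15 and 11.1), all of them under the pooled median.

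**Figure D2:**
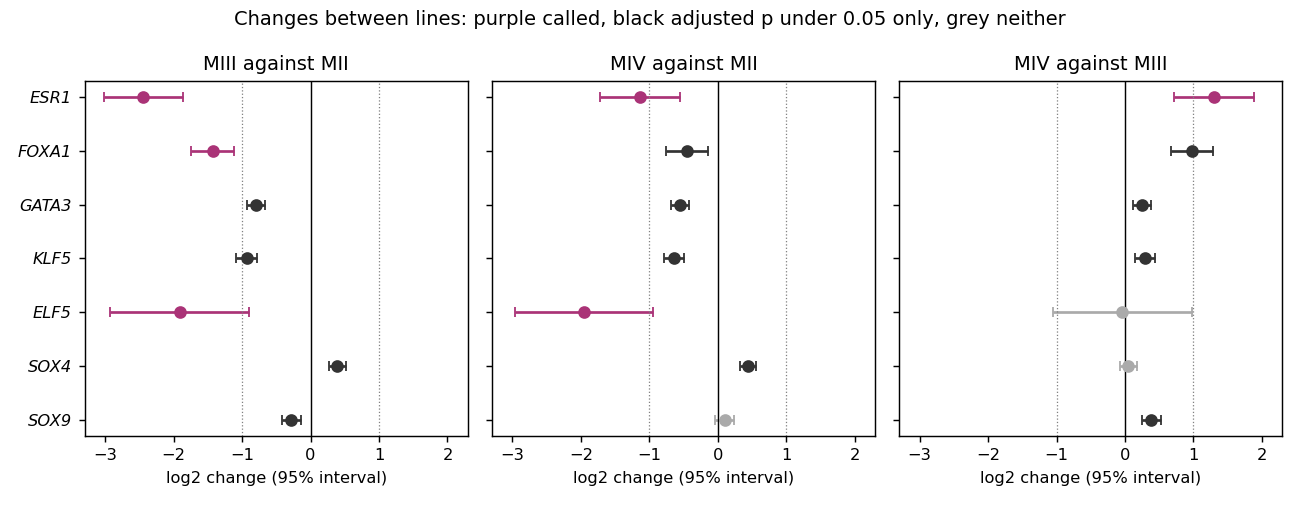
Log2 change of the 7 tested members (rows) in each comparison (panels, x axis in log2 units); points are limma estimates and bars 95% intervals, dotted lines mark 2-fold, and colours separate called members, members past the adjusted p alone, and the others. ESR1 is past 2-fold in all 3 panels, whereas GATA3 and KLF5 stay within 2-fold in each.

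Over probe sets, 5 of the 16 tested were called in MIII against MII, all lower, against 10.6% of the 24455 tested probe sets. In MIV against MII 2 were called, both lower (background 7.16%), and in MIV against MIII 2, both higher (background 11.7%). The 2 called in MIV against MII are those of ESR1 and ELF5, which are also among the 5 called in MIII against MII. Neither would have passed the filter without its MII arrays, where it is high, so these calls add no support to the counts. Probe sets of 1 gene share its RNA and are no replicates. FOXA1, GATA3 and KLF5 had the same direction on all their tested probe sets in all comparisons. SOX4 and SOX9 each had probe sets of opposite sign in 1 comparison, SOX4 between MIV and MIII and SOX9 between MIV and MII.

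**Figure D3:**
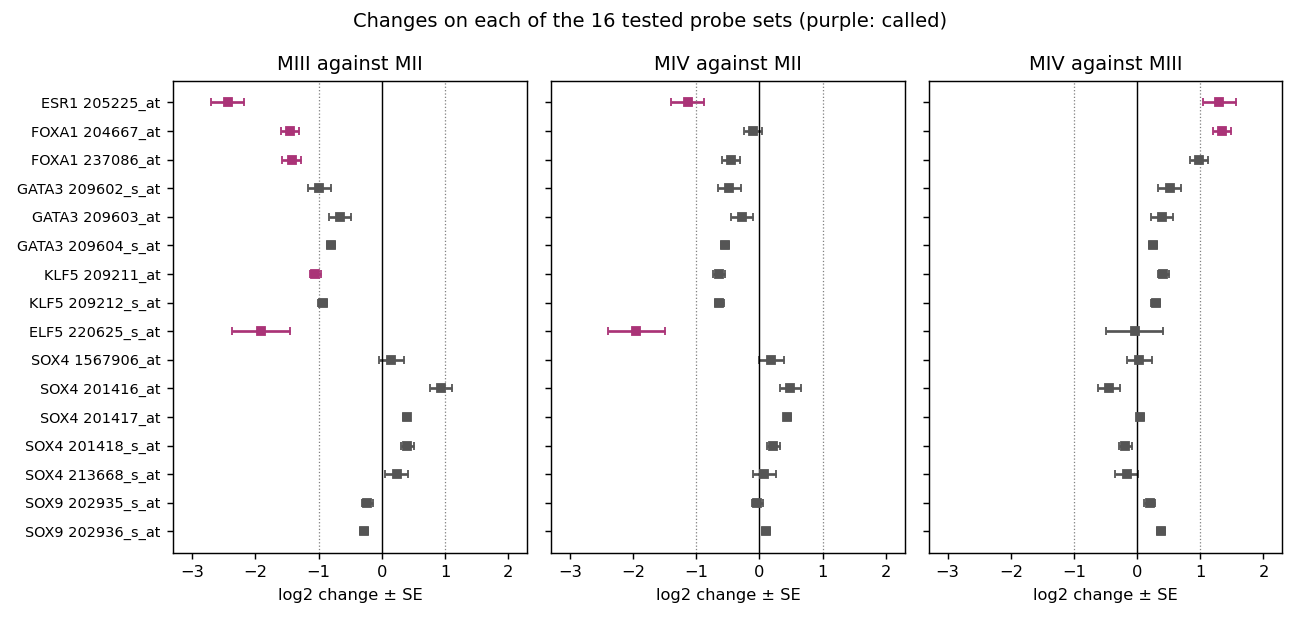
Log2 change ± limma SE (x axis) of each of the 16 tested probe sets (rows) in each comparison (panels), with called probe sets in purple and dotted lines at 2-fold. The fit leaves 6 residual degrees of freedom, and the SE also borrows spread from the other probe sets. FOXA1, GATA3 and KLF5 probe sets lie on one side of 0 within each panel, and the SOX4 and SOX9 probe sets straddle 0 in 1 panel each.

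The genes that work under the luminal factors did not move as one group. Beside the counts of this and the following lists stand the shares of all genes tested. These were 6.17% called higher and 5.55% lower in MIII against MII, 2.96% and 5.18% in MIV against MII, and 4.95% and 7.79% in MIV against MIII. They do not apply to counts on probe sets without a suffix, with the mean of probe sets or with another filter, for which no share is given. Of 35 genes listed as dependent on the estrogen receptor, FOXA1 or GATA3, 22 were tested, and in MIII against MII 6 were called higher and 4 lower (median 0.05). IGFBP4, a binding protein of insulin-like growth factors, rose by 7.36 ± 0.31 from a mean signal of 24.0 to 6410.0, and, like GREB1, passed the filter only through its MIII arrays. The mucin MUC1 (-4.15 ± 0.11), the receptor ERBB3 (-4.14 ± 0.31) and the disulfide isomerase AGR2 (-3.45 ± 0.14) fell, all as limma log2 changes. Between MIV and MII 1 was called higher and 3 lower (median -0.10). MUC1 had a change of -5.55 ± 0.11, the melanosome transport gene MLPH of -3.73 ± 0.15, AGR2 of -1.50 ± 0.14 and GREB1, an estrogen-induced coactivator of the receptor, of 1.33 ± 0.36. The GREB1 call was lost with the offset at the pooled median (0.67) and without MII replicate 3 (0.98). MUC1 and MLPH have no tested probe set without a suffix, and on such probe sets 1 of 16 luminal genes was called higher and 1 lower in MIV against MII. In MIV against MIII 3 were called higher and 7 lower (median -0.43), led by IGFBP4 (-7.47 ± 0.31), the carbonic anhydrase CA12 (-4.15 ± 0.13), ERBB3 (3.75 ± 0.31) and MLPH (-3.11 ± 0.15). The progesterone receptor PGR and the trefoil factors TFF1 and TFF3, textbook estrogen targets, did not pass the filter.

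Basal genes that depend on p63 were tested for 30 of 39 listed, with 2 called higher and 5 lower in MIII against MII (median -0.31). The keratin KRT15 (-5.52 ± 0.07), the epidermal factor ZNF750 (-3.69 ± 0.27), the desmosomal cadherin DSG3 (-2.04 ± 0.08) and TRIM29 (-1.88 ± 0.06) fell there. Comparing MIV with MII, 2 were called higher and 4 lower (median -0.10). KRT14 had a change of -3.82 ± 0.11, IGFBP3 of -2.74 ± 0.12, the cell cycle inhibitor CDKN1A of -2.40 ± 0.06 and ZNF750 of -2.09 ± 0.27. In MIV against MIII 8 were called higher and 4 lower (median 0.28), among them KRT15 (5.19 ± 0.07), IGFBP3 (-4.51 ± 0.12), KRT14 (-2.66 ± 0.11) and the cadherin FAT2 (-2.25 ± 0.20). KRT14, partner of KRT5 in basal keratin filaments, thus stood at 2155 ± 85.4, 957 ± 84.5 and 137 ± 20.4 in MII, MIII and MIV (SD, n = 3), and KRT15 at 34334 ± 726, 730.4 ± 49.9 and 27420 ± 2851. On probe sets without a suffix, 21 basal genes were tested. Of these, 0 were called higher and 4 lower in MIII against MII, 0 higher and 1 lower in MIV against MII, and 5 higher and 1 lower in MIV against MIII. ZNF750 passed the filter only through its MII arrays.

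Of the alveolar and milk genes, 9 of 17 listed were tested, and the milk proteins CSN2, CSN3 and LALBA did not pass the filter. In MIII against MII 0 were called higher and 3 lower (median -0.28): the siderophore-binding lipocalin LCN2 (-4.26 ± 0.09), the aldehyde dehydrogenase ALDH1A3 (-2.12 ± 0.05) and CD14 (-1.30 ± 0.10). From MII to MIV LCN2 (-2.83 ± 0.09) and CD14 (-2.15 ± 0.10) were called lower, 2 of 9, and 0 higher (median -0.34). Between MIV and MIII, ALDH1A3 (2.04 ± 0.05) and LCN2 (1.43 ± 0.09) were called higher and STAT5A, the prolactin-activated factor that acts beside ELF5, lower (-1.05 ± 0.23; median -0.06). The STAT5A call was lost with the offset at the pooled median (-0.76), with quantile normalization (-0.91) and without MIV replicate 2 (-0.91), and that of ALDH1A3 with the mean of its probe sets (0.71).

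Genes associated with SOX9 and SOX4 were tested for 15 of 20 listed. In MIII against MII 3 were called higher and 0 lower (median 0.07): the neuronal cadherin CDH2 (3.76 ± 0.17), the cartilage factor SOX5 (2.15 ± 0.28) and the matrix linker HAPLN1 (1.18 ± 0.43). SOX5 and HAPLN1 lay above the pooled median only in MIII and passed the filter only through it, so they had to differ, and with the filter at the pooled 75th percentile 1 of 9 was called higher. Between MIV and MII 0 were called higher and 3 lower (median -0.37): the ligand TGFB2 (-3.04 ± 0.16), MIA (-1.62 ± 0.09) and CDH2 (-1.11 ± 0.17). In MIV against MIII 6 were called lower and 0 higher (median -0.59), led by CDH2 (-4.87 ± 0.17), TGFB2 (-2.43 ± 0.16), SOX5 (-2.13 ± 0.28) and the semaphorin SEMA3C (-1.59 ± 0.06). The HAPLN1 call in MIII was lost when MII replicate 1, MII replicate 2, MIII replicate 1 or MIII replicate 3 was left out (log2 changes of 1.02, 0.95, 1.22 and 0.98) and with an offset of 1 (1.61) or the pooled median (0.68), and that of CDH2 in MIV against MII with the mean of its probe sets (-0.30), with the offset at the pooled median (-0.75), without MII replicate 2 (-0.96) and without MIV replicate 1 (-0.99). CDH2 and SOX5 were highest in MIII, as were the called fibroblast markers, whose part in this was not tested.

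**Figure D4:**
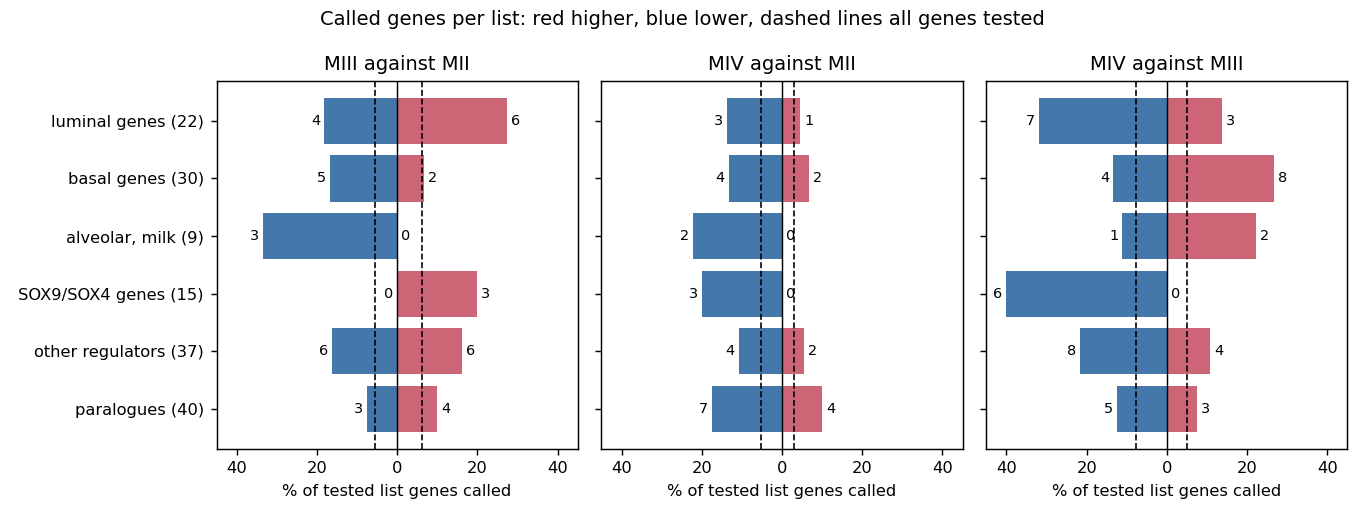
Share of the tested genes of each list (rows, number tested in brackets) that were called higher (right, red) or lower (left, blue) in each comparison (panels, x axis in percent), with counts at the bars and dashed lines at the share of all genes tested. The luminal list has called genes on both sides in every panel, and the SOX9/SOX4 list has 3 higher in MIII against MII and 6 lower in MIV against MIII.

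Other regulators of the mammary lineages were tested for 37 of 45 listed, with 6 called higher and 6 lower in MIII against MII (median 0.12). The grainyhead factor GRHL1, which acts in epithelial junctions (-3.75 ± 0.10), and the ETS factor ELF3 (-3.14 ± 0.08) fell in MIII, and the bone factor RUNX2 (3.58 ± 0.19) and the Notch target HEY1 (2.65 ± 0.20) rose. The RUNX2 calls were lost with the mean of its probe sets (0.64 in MIII against MII, -0.47 in MIV against MIII). Comparing MIV with MII, 2 were called higher and 4 lower (median -0.11), with ID2, an inhibitor of helix-loop-helix factors, at -1.88 ± 0.12, BCL11B at -1.81 ± 0.16, EHF at -1.21 ± 0.06 and RUNX2 at 1.21 ± 0.19 (0.17 with the mean of its probe sets, and 0.72 with the offset at the pooled median). In MIV against MIII 4 were called higher and 8 lower (median -0.07), with GRHL1 at 3.22 ± 0.10, ID2 at -3.20 ± 0.12, HEY1 at -3.17 ± 0.20 and RUNX2 at -2.38 ± 0.19. With the mean of all probe sets, 7 of 35 were called in MIII against MII, 3 higher and 4 lower, and on probe sets without a suffix 3 of 23 in MIV against MII, 1 higher and 2 lower. LBH, called higher in MIII against MII and lower in MIV against MIII, passed the filter only through its MIII arrays.

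The paralogues of the members were tested for 40 of 60 listed, with 4 called higher and 3 lower in MIII against MII (median 0.21), 4 and 7 in MIV against MII (median 0.04) and 3 and 5 in MIV against MIII (median -0.02). SOX5 passed the filter only through its MIII arrays and ESRRG, called lower in MIV against MII, only through its MII arrays. Their calls add no support to these counts. In MIV against MII, the calls of ESRRG, KLF11, ETS1 and ETS2 were lost with the mean of their probe sets (-0.86, 0.67, 0.82 and -0.66). Among relatives of ELF5, ELF3 gave 2460 ± 105, 263 ± 20.1 and 1131 ± 14.6 in MII, MIII and MIV (SD, n = 3 arrays), and its log2 change was -3.14 ± 0.08, -1.11 ± 0.08 and 2.03 ± 0.08 for MIII against MII, MIV against MII and MIV against MIII. Among forkhead relatives of FOXA1, FOXL1 rose by 3.43 ± 0.26 in MIII and 2.02 ± 0.26 in MIV against MII, and FOXC2, a mesenchymal factor, changed by 2.25 ± 0.13 in MIII and -2.33 ± 0.13 in MIV against MII and by -4.58 ± 0.13 between MIV and MIII. SOX5 rose by 2.15 ± 0.28 in MIII and had a change of -2.13 ± 0.28 between MIV and MIII. Among relatives of KLF5, KLF9 had changes of -1.98 ± 0.14 in MIV against MII and -2.23 ± 0.14 in MIV against MIII, and the reprogramming factor KLF4 of -1.83 ± 0.08 in MIV against MII. KLF4 and KLF9 have no tested probe set without a suffix.

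The genes whose centred log2 signals over the 9 arrays lay nearest to those of a called member were named for each. Nearest to ESR1 were PRSS3P2 (Euclidean distance 0.43 log2 units) and the immune receptor VSIR (0.76). VSIR had signals of 2195 ± 108, 375 ± 29.1 and 946 ± 52.1 in MII, MIII and MIV (SD, n = 3). Nearest to FOXA1 were the opsin OPN3 (0.36), with 2744 ± 129, 943 ± 82.4 and 2137 ± 137, and the connexin GJB5 (0.39), with 2168 ± 75.5, 791 ± 77.8 and 1581 ± 103. Nearest to ELF5 were the integrin ITGB7 (1.05) and the pantetheinase VNN1 (1.06), both under the pooled median in MIII and MIV like ELF5. These genes were picked for their likeness, so their changes are a description only.

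The 5 nearest tested genes on each side of each member were read in genome order. Over all genes tested, 11.7% were called in MIII against MII, 8.14% in MIV against MII and 12.7% in MIV against MIII. With 10 neighbours, a count of 0 cannot be told from these shares. Around FOXA1 on chromosome 14, 0 of 10 neighbours were called in MIII against MII (median -0.26), where FOXA1 fell by 1.43 on the log2 scale. SLC25A21, a mitochondrial carrier, was called lower in MIV against MII (-1.32 ± 0.22). Around ESR1 on chromosome 6, 3 of 10 were called higher and 1 lower in MIII against MII, the anchoring protein AKAP12 (2.37 ± 0.08), RGS17 (2.70 ± 0.15), SYNE1 (1.41 ± 0.44) and PLEKHG1 (-1.39 ± 0.15). AKAP12 was also higher in MIV than in MII (2.67 ± 0.08), and in MIV against MIII PLEKHG1 was higher (1.21 ± 0.15) and RGS17 (-2.74 ± 0.15) and SYNE1 (-1.20 ± 0.44) were lower. Around ELF5 on chromosome 11, its next neighbour is EHF, another epithelial ETS factor, which was lower than in MII by -1.92 ± 0.06 in MIII and -1.21 ± 0.06 in MIV, with signals of 4918 ± 122, 1285 ± 96.0 and 2114 ± 75 in MII, MIII and MIV. The other called neighbour of ELF5 was LMO2 (1.11 ± 0.23 in MIII against MII).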

How the data were processed

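Total RNA of 3 cell lines was hybridised to 1-colour Affymetrix arrays, 3 for each. The authors deposited linear intensity values from MAS5, per the submitters' processing notes. Its version is not given in the sources used here. Each array has a trimmed mean near 500.07, and no further scaling was applied. Of 54675 probe sets, 62 were controls, 41091 carry 1 gene, 1801 several and 11721 none in the annotation used, and the gene IDs of 41037 of the probe sets with 1 gene were matched to RefSeq (GRCh38.p14) with 0 symbols changed.

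Genes were tested as log2(signal + 18.3), the offset being the pooled 25th percentile, so fold changes of dim genes are understated. Genes entered the test where 3 or more of the 9 arrays lay above the pooled median (69.3) on the probe set of the gene with the highest mean. Group means were fitted with limma 3.58.1 (under R 4.3.3), using a variance trend with intensity, on 6 residual degrees of freedom. Benjamini-Hochberg adjustment ran over 12594 genes, or over 24455 probe sets. A call needs an adjusted p under 0.05 and at least 2-fold. Errors of changes are limma standard errors, which borrow spread across genes or probe sets, and errors of signals are SDs over 3 arrays. In simulated data with 200 changed genes among 12594, tested for MIII against MII, 45% of genes with a log2 change of 1 were called, 95% with 1.5 and 92% with 2. A change of 1 is the 2-fold limit itself, so the call rule leaves out many such genes, and 77% of them passed the adjusted p. Only genes past the filter were simulated, with fewer changed than the 1476 called in the data. These shares therefore do not give the sensitivity for the members.

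The members, the gene lists and the tests were chosen with earlier results of these data known. Named were all members, up to 4 called genes per list and comparison with the largest change, the 2 genes nearest to each called member, and called genome neighbours of called members. Alternatives tried were an offset of 1 or the pooled median, quantile normalization, scaling to the same median, no filter or one at the pooled 75th percentile (435.7), no trend, the mean of all probe sets, the brightest suffix-free probe set (no _s_at, _x_at or _a_at), a replicate block, the arrays of the compared lines alone, other thresholds and leaving out each array. Counts of the lists under these alternatives, and the promoter windows, were added after the data were seen.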

Additional observations from a re-analysis of the deposited data

How the results depend on the processing

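Many of the 444 member changes listed under the alternatives could not change direction. Other thresholds, other filters, no trend, a replicate block and the compared lines alone leave each log2 change as it was. The same holds for leaving out an array of the line not compared. The count that kept direction is therefore no measure of robustness. Of the 444, 440 kept their direction and 412 also their side of the threshold. The reversed ones, all in MIV against MIII, were near 0: ELF5 was 0.049 with quantile normalization, 0.34 without MIII replicate 1 and 0.22 without MIV replicate 2 (range with an array left out -0.30 to 0.34), and SOX4 was -0.064 with the mean of all probe sets. Members called in MIV against MIII numbered 1, and 2 with an offset of 1 or quantile normalization, 0 with the offset at the pooled median, 0 with the filter at the pooled 75th percentile, 5 without a fold minimum, 0 at an adjusted p under 0.01 and 4-fold, and 1 to 2 with an array left out. In MIV against MII they numbered 2, and 0 with the offset at the pooled median, with the filter at the 75th percentile or with the mean of all probe sets, 1 on suffix-free probe sets, 6 without a fold minimum, 0 at the strict threshold, and 1 to 2 with an array left out. In MIII against MII they numbered 3, and 1 with the filter at the 75th percentile, the mean of all probe sets or the strict threshold, 7 without a fold minimum, and 3 with any array left out. That filter and that mean leave ESR1 and ELF5 untested. Called member probe sets, 2, 2 and 5 in the order MIV against MIII, MIV against MII, MIII against MII, became 1, 0 and 3 with that filter, 1 and 0 for the first pair with the offset at the pooled median, and 2 to 3, 1 to 2 and 4 to 7 with an array left out. A replicate block changed no member call, with 1, 2 and 3 members called. The numbers do not pair the arrays, as same-number deviations correlated between -0.039 and 0.039 over 9 pairs. Called genes in all, 1604, 1025 and 1476 in that order, became 893, 535 and 810 with the filter at the 75th percentile, 6530, 5310 and 5946 without a fold minimum, and 515, 257 and 499 at the strict threshold, and 1025 became 681 with the offset at the pooled median. List counts stayed within 1.5 times in 195, 190 and 193 of 200 settings per comparison.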
